A study of Sus scrofa with 9 samples.

Results

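Transcripts of matrix glycoproteins, proteoglycans and collagen-modifying enzymes were examined in transplanted pig kidneys. The set was a list of 54 gene symbols, drawn up with earlier results of these data known, and 38 of them had a probe set with a single gene symbol in the array annotation, out of 12362 named genes on the array. The other 16 (THBS2, OGN, FBN2, FBLN2, ELN, MFAP4, LTBP1, LAMA1, LAMA5, LAMB2, LAMC1, NID1, AGRN, LOXL2, P4HA2 and PLOD3) were not analysed here. For PLOD1, which had several probe sets, the one of highest mean was used. The mean over all arrays lay above the median probe set for 33 of the 38 members, and 0 of the 38 fell among the dimmest 25% of probe sets.

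Each sample was a kidney biopsy of a different male Yorkshire pig, hybridised to 1 Affymetrix array on which a log2 value reports the brightness of each probe set. In the NEVKP group (n = 3) the right kidney underwent 30 min of warm ischemia, was taken out and flushed, then was perfused near body temperature for 8 h outside the animal (Normothermic Ex-Vivo Kidney Perfusion), before it was returned to the same animal. In the SCS group (n = 3) the same ischemia and flush were followed by 8 h of static cold storage without flow, and in the No Storage group (n = 3) the flushed kidney was put back directly. Every animal lost its left kidney at transplantation and was biopsied on day 3, so that warm ischemia, surgery and the single kidney were common to all 3 groups, and no kidney free of them was analysed here.

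The extracellular matrix is the network of secreted proteins around cells. In the kidney it consists of the basement membranes under tubules, glomerular capillaries and vessels, and of the interstitial matrix made largely by fibroblasts and pericytes. After injury a provisional matrix rich in fibronectin and matricellular proteins is laid down, collagens are hydroxylated inside the cell and cross-linked outside it by lysyl oxidases, and proteoglycans bind collagen fibrils and growth factors such as TGF-beta.

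The median log2 value per array ran from 5.705 to 5.797, and arrays correlated at 0.974 to 0.991. UMOD, the uromodulin of the thick ascending limb, was well above the dim range at 8.84 to 12.96. So was LRP2, an endocytic receptor of the proximal tubule, at 11.42 to 12.42. When arrays were weighted by their agreement with the model, SCS replicate 2 (0.46) and NEVKP replicate 2 (0.57) had the lowest weights. Among the 38 members, SCS replicate 2 held the highest value of its group for 20, NEVKP replicate 2 for 23 and No Storage replicate 1 for 22, while No Storage replicate 2 held the lowest of its group for 23.

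The comparison of SCS with No Storage asked how kidneys kept cold differ from kidneys that were not stored. Matrix transcripts lay higher in SCS, most of all fibronectin and matricellular proteins, versican and the heparan sulfate editing enzyme SULF1, each at about a doubling or more for the leading genes. The log2 difference was above 0 for 33 of 38 members and below 0 for 5, with a median of 0.39, beside a median of 0.00 over all named genes. At an unadjusted p under 0.05 in limma, 15 of 38 members were higher, beside 7.75% of all 19124 probe sets, and 0 were lower, beside 7.79%. For 15 members every SCS array lay above every No Storage array, beside 11.3% of all probe sets, and for 0 members every SCS array lay below, beside 11.6%. After adjustment over all probe sets 0 of 38 members passed 0.05, beside 0.162% of probe sets, and FN1 came nearest.

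The comparison of NEVKP with No Storage asked the same of kidneys perfused warm. Tenascin-C, versican, TGFBI, periostin and SULF1 lay higher in NEVKP by 0.78 to 1.61 on the log2 scale, and fibronectin by 0.47. The log2 difference was above 0 for 34 members and below 0 for 4, with a median of 0.36, beside -0.01 over all named genes. At an unadjusted p under 0.05 in limma, 10 of 38 members were higher, beside 4.67% of all probe sets, and 0 were lower, beside 4.40%. Without NEVKP replicate 2 the count was 5, a setting for which the share of all probe sets was not counted. The arrays did not overlap for 15 members that were higher, beside 7.94%, and for 1, SULF2, that was lower, beside 8.57%. No member passed an adjusted p of 0.05, a threshold passed by 0% of probe sets in this comparison.

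NEVKP against SCS tested the difference between the stored groups directly. Fibronectin was lower in NEVKP than in SCS and was the member of smallest p, and differences of the other members ran both ways. The log2 difference was above 0 for 15 members and below 0 for 23, with a median of -0.07. Only FN1 had an unadjusted p under 0.05 among the 38 members in limma, as the 1 lower member, beside 3.70% of all probe sets, and 0 were higher, beside 3.80%. For 3 members, FN1, LTBP2 and NID2, every NEVKP array lay below every SCS array, beside 6.78% of probe sets, and for 0 every one lay above, beside 5.01%. The 95% confidence interval of the NEVKP minus SCS difference included 0 for 37 of 38 members. For 31 of these it also stayed within 1 log2 unit of 0 on both sides. No member passed an adjusted p of 0.05, and neither did any other probe set (0%). SCS and NEVKP were each compared with the same No Storage arrays, so those comparisons are not independent of each other.

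**Figure D1:**
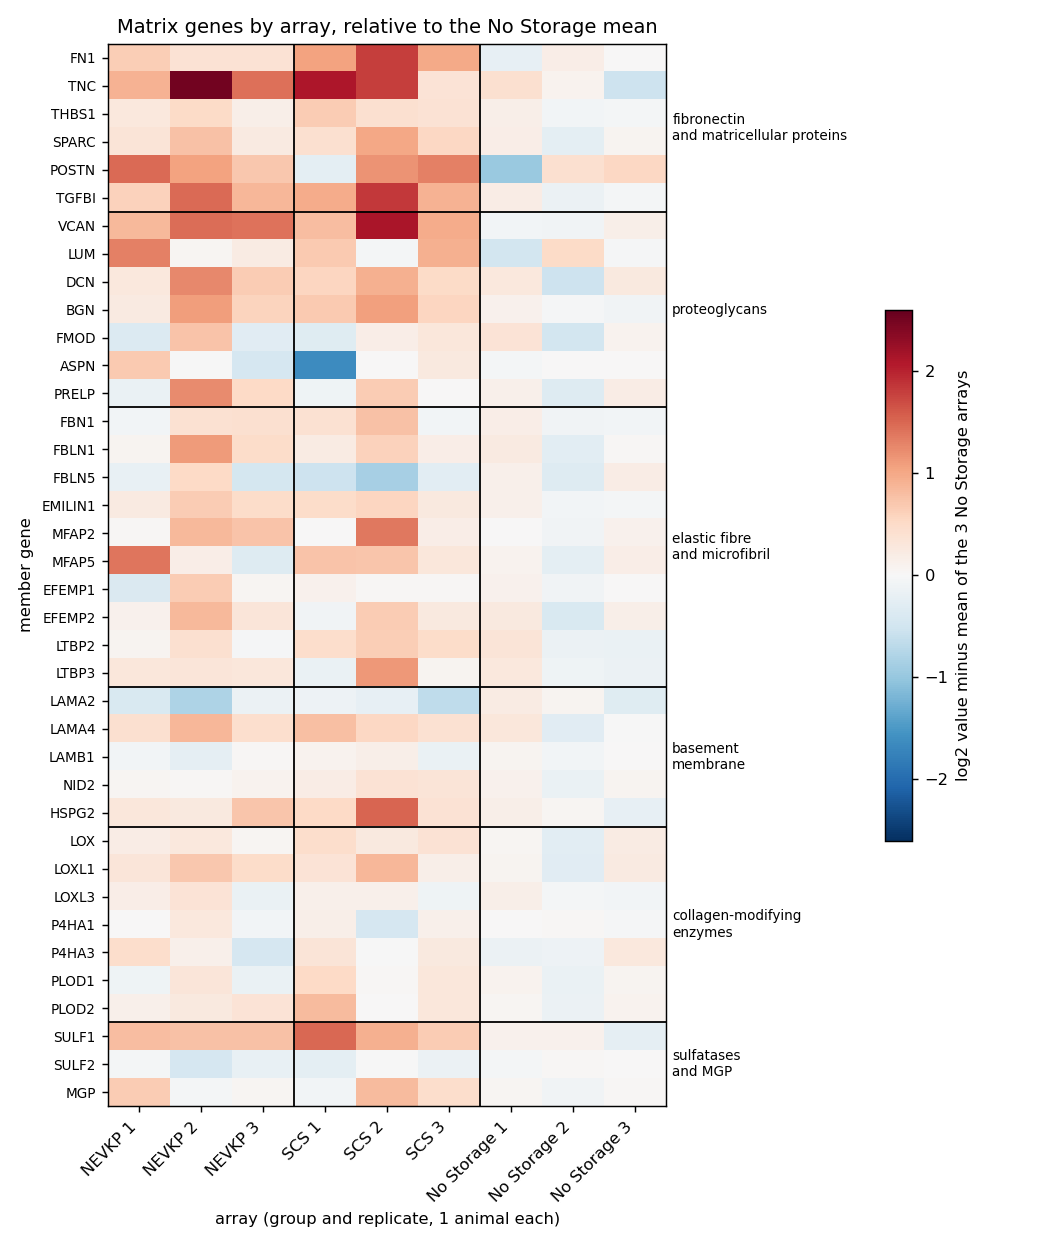
Log2 value of each of the 38 measured members (rows, grouped by role) in each of the 9 arrays (columns) minus the mean of the 3 No Storage arrays, with red for higher and blue for lower. Red is the commoner colour in the rows from FN1 to BGN in NEVKP and SCS, and the lower rows of collagen-modifying enzymes are pale.

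Fibronectin and the matricellular proteins are secreted glycoproteins that connect cells to the matrix. FN1, fibronectin (NCBI Gene ID 397620), which binds integrins and collagens, had log2 values of 10.15, 9.88 and 9.89 in NEVKP replicates 1, 2 and 3. It had 10.55, 11.31 and 10.50 in SCS, and 9.30, 9.69 and 9.53 in No Storage. The 3 groups did not overlap, with SCS highest and No Storage lowest. FN1 was 2.43-fold higher in SCS than in No Storage (log2 difference 1.28, SE 0.21, limma adjusted p = 0.0513). Its adjusted p ran from 0.033 to 0.221 over the alternative settings. Against No Storage the NEVKP difference was 0.47 (95% confidence interval -0.01 to 0.94, limma adjusted p = 0.557). NEVKP lay -0.82 from SCS (95% confidence interval -1.29 to -0.34, limma adjusted p = 0.52), and -0.50 when SCS replicate 2 and NEVKP replicate 2 were left out.

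TGFBI, a TGF-beta induced protein that binds integrins and collagens (NCBI Gene ID 100519300), had values of 9.45, 10.34 and 9.72 in NEVKP, 9.82, 10.70 and 9.77 in SCS, and 9.06, 8.71 and 8.80 in No Storage. All NEVKP and SCS arrays lay above all No Storage arrays, and NEVKP and SCS overlapped. The log2 difference from No Storage was 1.24 in SCS (SE 0.28, limma adjusted p = 0.091) and 0.98 in NEVKP (SE 0.28, limma adjusted p = 0.395), and between NEVKP and SCS it was -0.26 (95% confidence interval -0.88 to 0.36).

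TNC, tenascin-C (NCBI Gene ID 397460), a matricellular protein of developing and healing tissue, had values of 6.41, 8.01 and 6.94 in NEVKP, 7.61, 7.30 and 5.87 in SCS, and 5.93, 5.61 and 4.98 in No Storage. NEVKP lay above No Storage throughout, while SCS replicate 3 fell within the No Storage range. The difference from No Storage was 1.42 in SCS (SE 0.49, limma adjusted p = 0.204) and 1.61 in NEVKP (SE 0.49, limma adjusted p = 0.429), the widest differences of any member against No Storage in these fits. The NEVKP minus SCS difference of 0.19 had a 95% confidence interval of -0.90 to 1.28, so that a difference of about a doubling either way could not be told from none.

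The remaining members of this role were higher in SCS and NEVKP on average. THBS1, thrombospondin-1, which can activate latent TGF-beta, averaged 11.83 ± 0.17 in NEVKP, 12.01 ± 0.16 in SCS and 11.52 ± 0.12 in No Storage (SD, n = 3 each). SPARC, a collagen-binding matricellular protein, averaged 11.37 ± 0.29 in NEVKP, 11.57 ± 0.31 in SCS and 10.92 ± 0.22 in No Storage. Neither THBS1 nor SPARC overlapped between a stored group and No Storage, with differences from No Storage of 0.48 for THBS1 and 0.65 for SPARC in SCS, and of 0.30 and 0.44 in NEVKP, where that of SPARC was 0.28 without NEVKP replicate 2. POSTN, periostin, a matricellular protein of healing tissue, averaged 8.65 ± 0.39 in NEVKP, 8.32 ± 0.86 in SCS and 7.58 ± 0.83 in No Storage. Its differences of 1.07 in NEVKP and 0.74 in SCS were 0.59 and 0.26 without No Storage replicate 1, the lowest array. The SCS arrays of POSTN overlapped those of No Storage. The 6 measured members of this role had median differences of 0.99 in SCS and 0.72 in NEVKP, both against No Storage.

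**Figure D2:**
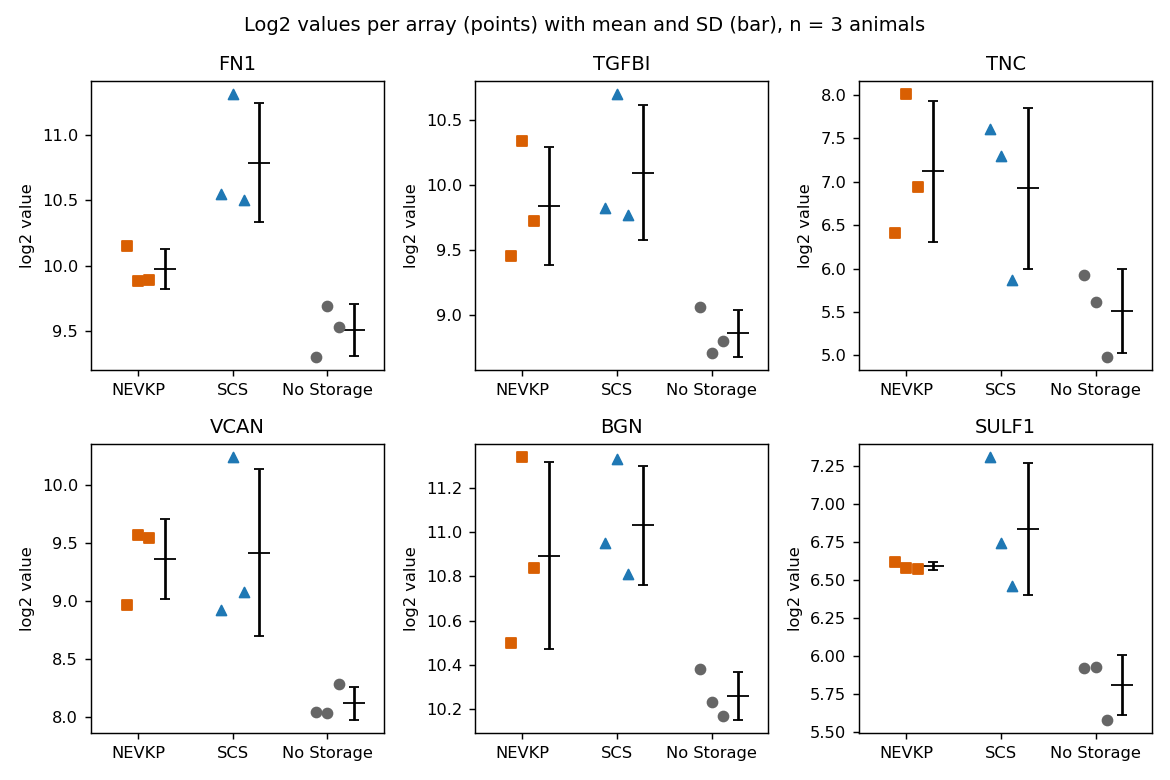
Log2 values of FN1, TGFBI, TNC, VCAN, BGN and SULF1 (y axis, range differs by panel) in NEVKP, SCS and No Storage arrays (x axis), with points for single animals and a bar for mean and SD. FN1 separates the 3 groups, whereas the NEVKP and SCS points of the other genes overlap.

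Among proteoglycans, VCAN, versican (NCBI Gene ID 397328), a large chondroitin sulfate proteoglycan that binds hyaluronan, had log2 values of 8.96, 9.57 and 9.54 in NEVKP, 8.92, 10.24 and 9.08 in SCS, and 8.04, 8.03 and 8.28 in No Storage. NEVKP and SCS overlapped, and every array of either lay above the No Storage arrays. VCAN was 2.46-fold higher in SCS (log2 difference 1.30, SE 0.31, limma adjusted p = 0.103) and 2.36-fold higher in NEVKP (1.24, SE 0.31, limma adjusted p = 0.388) than in No Storage. NEVKP minus SCS was -0.06 (95% confidence interval -0.76 to 0.63).

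BGN, biglycan (NCBI Gene ID 397396), is a small leucine-rich proteoglycan that binds collagen. It had values of 10.50, 11.34 and 10.84 in NEVKP, 10.95, 11.33 and 10.81 in SCS, and 10.38, 10.23 and 10.17 in No Storage. No Storage was lowest without overlap, with differences of 0.77 in SCS (SE 0.21, limma adjusted p = 0.135) and 0.63 in NEVKP (SE 0.21, limma adjusted p = 0.444). The NEVKP difference was 0.41 without NEVKP replicate 2.

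DCN, decorin, a relative of biglycan that also binds collagen and TGF-beta, averaged 11.50 ± 0.49 in NEVKP, 11.42 ± 0.23 in SCS and 10.77 ± 0.46 in No Storage (SD, n = 3 each). Its differences of 0.65 in SCS and 0.73 in NEVKP were 0.39 and 0.46 without No Storage replicate 2, and the NEVKP difference was 0.47 without NEVKP replicate 2. The other collagen-binding members of the small leucine-rich family did not have an unadjusted p under 0.05 in any comparison. The differences in SCS were 0.52 for LUM (lumican), 0.05 for FMOD (fibromodulin), 0.18 for PRELP and -0.45 for ASPN (asporin), and in NEVKP 0.52, 0.03, 0.52 and 0.08 in the same order. Single arrays moved these values. In SCS the ASPN difference was 0.13 without SCS replicate 1, that of PRELP was -0.05 without SCS replicate 2 and that of LUM was 0.29 without No Storage replicate 1. In NEVKP the LUM difference was 0.13 without NEVKP replicate 1, that of PRELP was 0.17 without NEVKP replicate 2 and that of ASPN was -0.22 without NEVKP replicate 1. LUM averaged 10.64 ± 0.69 in NEVKP, 10.64 ± 0.51 in SCS and 10.12 ± 0.48 in No Storage (SD, n = 3 each), and PRELP averaged 10.89 ± 0.70 in NEVKP, 10.55 ± 0.41 in SCS and 10.37 ± 0.28 in No Storage. FMOD had nearly the same mean in each group, 10.28 ± 0.62 in NEVKP, 10.30 ± 0.32 in SCS and 10.25 ± 0.42 in No Storage. ASPN averaged 5.68 ± 0.57 in NEVKP, 5.14 ± 1.02 in SCS and 5.60 ± 0.05 in No Storage, and its SD in SCS was the widest of any member there.

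Elastic fibres consist of elastin on a scaffold of fibrillin microfibrils. EMILIN1, a glycoprotein at the interface of elastin and microfibrils (NCBI Gene ID 100523665), had values of 7.08, 7.51 and 7.32 in NEVKP, 7.31, 7.40 and 7.10 in SCS, and 6.97, 6.76 and 6.79 in No Storage. No Storage was lowest without overlap. EMILIN1 differed from No Storage by 0.43 in SCS (SE 0.15, limma adjusted p = 0.197) and 0.46 in NEVKP (SE 0.15, limma adjusted p = 0.439).

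LTBP2, a fibrillin-binding protein of the latent TGF-beta binding protein family (NCBI Gene ID 100514300), had values of 5.15, 5.49 and 5.03 in NEVKP, 5.52, 5.72 and 5.55 in SCS, and 5.40, 4.92 and 4.89 in No Storage. SCS stood above both other groups, which overlapped each other. The difference was 0.53 between SCS and No Storage (SE 0.17, limma adjusted p = 0.184) and -0.38 between NEVKP and SCS (95% confidence interval -0.76 to 0.01, limma adjusted p = 0.67).

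FBLN5, fibulin-5, which is needed for elastic fibre assembly (NCBI Gene ID 100155248), ran the other way, with values of 10.61, 11.31 and 10.34 in NEVKP, 10.27, 9.93 and 10.53 in SCS, and 10.94, 10.47 and 10.99 in No Storage. SCS had the lowest mean, and its range overlapped with each other group. FBLN5 lay -0.56 from No Storage in SCS (95% confidence interval -1.13 to 0.02, limma adjusted p = 0.335), and in 7 of 18 settings it was lower there at an unadjusted p under 0.05. NEVKP minus SCS was 0.51 (95% confidence interval -0.06 to 1.08, limma adjusted p = 0.688), which was 0.23 without NEVKP replicate 2 and 0.07 without SCS replicate 2 as well.

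Of the 10 measured elastic fibre and microfibril members, 2 in SCS and 1 in NEVKP were higher than in No Storage at an unadjusted p under 0.05, beside 7.75% and 4.67% of all probe sets. In SCS the differences were 0.36 for the fibrillin FBN1, 0.33, 0.06 and 0.27 for the fibulins FBLN1, EFEMP1 and EFEMP2, and 0.52 and 0.59 for the microfibril-associated MFAP2 and MFAP5. In NEVKP they were 0.25 for FBN1, 0.55, 0.11 and 0.42 for FBLN1, EFEMP1 and EFEMP2, and 0.54 and 0.41 for MFAP2 and MFAP5. Without SCS replicate 2 the SCS differences were 0.09 for MFAP2, 0.16 for FBN1, 0.19 for FBLN1 and 0.08 for EFEMP2. Without NEVKP replicate 2 the NEVKP differences were 0.27 for FBLN1, 0.21 for EFEMP2 and -0.16 for EFEMP1, and without NEVKP replicate 1 that of MFAP5 was -0.09. LTBP3, which holds latent TGF-beta in the matrix, differed by 0.35 in SCS, or -0.04 without SCS replicate 2, and by 0.31 in NEVKP. All 7 of these members overlapped between NEVKP and SCS. MFAP5 averaged 5.11 ± 0.89 in NEVKP, where its SD was the widest of any member, 5.29 ± 0.25 in SCS and 4.70 ± 0.23 in No Storage (n = 3 each). FBLN1 averaged 10.87 ± 0.52 in NEVKP, 10.64 ± 0.23 in SCS and 10.32 ± 0.26 in No Storage, and NEVKP replicate 2 was its highest array.

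Basement membranes are sheets of laminin and type IV collagen joined by nidogens and perlecan. NID2, nidogen-2 (NCBI Gene ID 100156994), had values of 9.30, 9.27 and 9.33 in NEVKP, 9.43, 9.61 and 9.57 in SCS, and 9.36, 9.06 and 9.32 in No Storage. SCS lay above the other groups, and NEVKP lay within the No Storage range. The differences were 0.29 for SCS against No Storage (SE 0.12, limma adjusted p = 0.292), 0.06 for NEVKP against No Storage, and -0.24 for NEVKP against SCS (95% confidence interval -0.51 to 0.04, limma adjusted p = 0.69).

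HSPG2, perlecan, a heparan sulfate proteoglycan, averaged 8.04 ± 0.26 in NEVKP, 8.43 ± 0.63 in SCS and 7.62 ± 0.19 in No Storage (SD, n = 3 each). Its SCS difference of 0.81 was 0.45 without SCS replicate 2. The laminin chains differed among themselves. LAMA4, the alpha-4 chain found in vessel walls, averaged 7.78 ± 0.25 in NEVKP, 7.78 ± 0.20 in SCS and 7.21 ± 0.30 in No Storage. The alpha-2 chain LAMA2 averaged 7.82 ± 0.33 in NEVKP, 7.94 ± 0.29 in SCS and 8.28 ± 0.27 in No Storage, with differences of -0.34 in SCS (-0.18 without SCS replicate 3) and -0.45 in NEVKP (-0.28 without NEVKP replicate 2), and the beta-1 chain LAMB1 differed by 0.03 in SCS and -0.09 in NEVKP.

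Collagen-modifying enzymes showed small differences. LOX, the lysyl oxidase that starts collagen and elastin cross-links, averaged 9.34 ± 0.11 in NEVKP, 9.53 ± 0.10 in SCS and 9.17 ± 0.26 in No Storage (SD, n = 3 each). Its SCS difference of 0.36 was 0.22 without No Storage replicate 2. LOXL1, a relative of LOX, differed by 0.46 in SCS, or 0.25 without SCS replicate 2, and by 0.49 in NEVKP, and LOXL3 by 0.05 in SCS and 0.11 in NEVKP. P4HA1 and P4HA3, subunits of prolyl 4-hydroxylase, whose product stabilises the collagen helix, differed by -0.05 and 0.20 in SCS and by 0.07 and 0.06 in NEVKP. PLOD2, a lysyl hydroxylase, averaged 8.63 ± 0.12 in NEVKP, 8.75 ± 0.41 in SCS and 8.38 ± 0.13 in No Storage, with differences of 0.25 in NEVKP and 0.37 in SCS, the second 0.15 without SCS replicate 1. Of the 7 measured enzymes, 1 in each comparison with No Storage was higher at an unadjusted p under 0.05, LOX in SCS and LOXL1 in NEVKP, beside 7.75% and 4.67% of all probe sets. Between NEVKP and SCS 0 of the 7 had such a p, beside 3.80% of all probe sets higher and 3.70% lower.

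PLOD1, another lysyl hydroxylase (NCBI Gene ID 100525583), had values of 7.59, 8.01 and 7.53 in NEVKP, 8.21, 7.73 and 8.00 in SCS, and 7.79, 7.53 and 7.78 in No Storage. The 3 groups overlapped. NEVKP minus SCS was -0.27 (95% confidence interval -0.65 to 0.12, limma adjusted p = 0.737) by the brighter probe set, -0.54 to -0.15 over the alternative settings, and -0.04 by the other probe set. For the SCS difference from No Storage the brighter probe set gave 0.28 and the other -0.03, opposite in sign.

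SULF1 and SULF2 are extracellular enzymes that remove sulfate groups from heparan sulfate, and MGP is an inhibitor of calcification. SULF1 (NCBI Gene ID 100152427) had log2 values of 6.62, 6.58 and 6.57 in NEVKP, 7.31, 6.74 and 6.46 in SCS, and 5.92, 5.93 and 5.58 in No Storage. No Storage was lowest without overlap, and the NEVKP arrays lay close together inside the SCS range. SULF1 was 2.03-fold higher in SCS (log2 difference 1.03, SE 0.20, limma adjusted p = 0.0646) and 1.72-fold higher in NEVKP (0.78, SE 0.20, limma adjusted p = 0.395) than in No Storage. SULF2 averaged 5.95 ± 0.19 in NEVKP, 6.03 ± 0.12 in SCS and 6.17 ± 0.04 in No Storage (SD, n = 3 each), with differences of -0.14 in SCS and -0.22 in NEVKP. MGP ran from 9.95 to 10.65 in NEVKP, from 9.92 to 10.83 in SCS and from 9.91 to 10.05 in No Storage, and its groups overlapped.

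**Figure D3:**
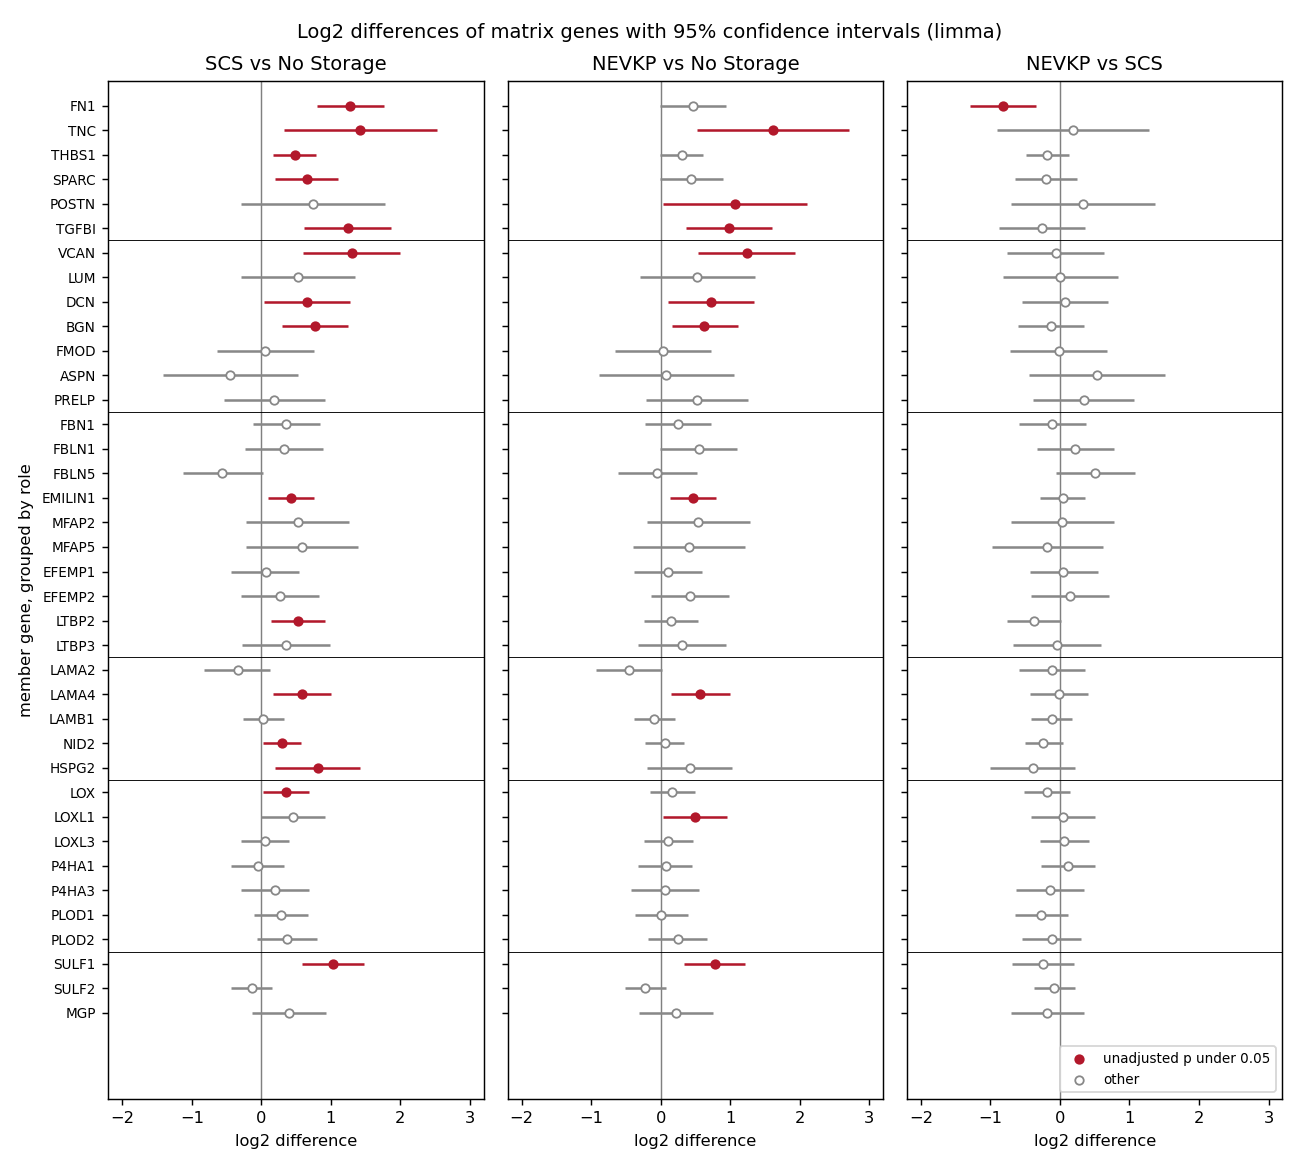
Log2 difference (x axis) of each member (rows, grouped by role) with its 95% confidence interval from limma, for SCS vs No Storage, NEVKP vs No Storage and NEVKP vs SCS, with filled red points for an unadjusted p under 0.05. Red points number 15, 10 and 1 in the 3 panels, and FN1 is the single one for NEVKP vs SCS.

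By role, the median difference in SCS against No Storage was 0.99 for fibronectin and matricellular proteins, 0.52 for proteoglycans, 0.35 for elastic fibre members, 0.29 for basement membrane members and 0.28 for collagen-modifying enzymes. In NEVKP against No Storage it was 0.72, 0.52, 0.36, 0.06 and 0.11 in the same order. The median for NEVKP against SCS was -0.19 for fibronectin and matricellular proteins and lay between -0.12 and 0.03 for the other 4. For the 5 basement membrane members the NEVKP minus SCS differences were -0.39 to -0.01. At an unadjusted p under 0.05 in limma 0 of the 5 were lower, beside 3.70% of all probe sets, and 0 higher, beside 3.80%. For 4 of the 5, all but NID2, the sign turned in some alternative setting. Per array, the members deviated from their No Storage means by a median of 0.24, 0.45 and 0.27 in NEVKP replicates 1, 2 and 3, 0.38, 0.62 and 0.29 in SCS, and 0.12, -0.11 and 0.03 in No Storage.

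Matrix receptors and genes of the TGF-beta axis showed a like direction in the comparisons with No Storage. Of 26 measured, 8 in SCS and 5 in NEVKP were higher at an unadjusted p under 0.05 in limma, beside 7.75% and 4.67% of all probe sets. By that rule 0 were lower in either, beside 7.79% and 4.40%. After adjustment 0 passed 0.05 in either, beside 0.162% and 0% of probe sets. The median difference was 0.26 in SCS and 0.14 in NEVKP. The members of smallest p in SCS were CD44, a hyaluronan receptor (1.12), SERPINH1, the collagen chaperone HSP47 (0.84), ITGA5, a subunit of the fibronectin receptor (0.70), and BMP1, a procollagen protease (0.51). In NEVKP they were ITGB6, a subunit of an integrin that activates TGF-beta (1.23), SERPINH1 (0.58), CYR61, a matricellular protein (0.68), and TGFB1 (0.61). For NEVKP against SCS 1 of 26 was lower at an unadjusted p under 0.05, CD44 (-0.56), near the 3.70% of all probe sets. By the same rule 0 were higher, beside 3.80%.

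Markers of other cells in the biopsies also differed between the groups, and in bulk tissue fewer cells of a type and less RNA per cell cannot be told apart. Of 10 measured fibroblast and pericyte markers, 4 were higher in SCS and 2 in NEVKP than in No Storage at an unadjusted p under 0.05 in limma. Over all probe sets 7.75% and 4.67% were higher by that rule. Of the markers 0 were lower, beside 7.79% and 4.40% of all probe sets. The mean log2 level of these 10 markers per array was 7.35 to 8.07 in NEVKP, 7.74 to 7.77 in SCS and 7.33 to 7.41 in No Storage. Their differences from No Storage ran from -0.05 to 0.90 in SCS and from -0.06 to 0.75 in NEVKP. RGS5, a pericyte gene, had the widest one in SCS (0.90). In NEVKP it differed by 0.61, with arrays that overlapped No Storage. DPT differed by -0.04 in SCS and -0.06 in NEVKP, and C7 by -0.05 and 0.05. Of 8 monocyte and macrophage markers, 4 were higher in SCS and 6 in NEVKP at an unadjusted p under 0.05, beside 7.75% and 4.67% of all probe sets. Mean levels were 6.77 to 7.13 in NEVKP, 6.67 to 6.97 in SCS and 6.27 to 6.39 in No Storage.

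Markers of tubules differed by segment. All 4 measured loop of Henle and distal tubule markers were lower in SCS than in No Storage at an unadjusted p under 0.05, beside 7.79% of all probe sets. All 4 were higher in NEVKP than in SCS by the same rule, beside 3.80%. Between NEVKP and No Storage 0 of the 4 passed that p in limma, beside 4.67% of all probe sets higher and 4.40% lower. Their differences there ran from -0.34 to 0.32, with a median of 0.01. Their mean level was 11.07 to 11.60 in NEVKP, 9.16 to 10.39 in SCS and 10.96 to 11.49 in No Storage. For 6 collecting duct markers, 5 in SCS and 4 in NEVKP were lower than in No Storage by that rule, beside 7.79% and 4.40% of all probe sets. Mean levels were 7.35 to 7.56 in NEVKP, 6.76 to 7.51 in SCS and 7.97 to 8.17 in No Storage. Of 5 proximal tubule markers, 2 were lower in SCS and 1 in NEVKP, beside 7.79% and 4.40% of all probe sets. The 1 higher in SCS, beside 7.75%, was SLC34A1. Its values of 4.01 to 5.80 lay not far above the limit of the dimmest 25% (3.923). In SCS the other 4 differed from No Storage by less than 0. Mean levels were 9.39 to 10.19 in NEVKP, 9.56 to 10.07 in SCS and 10.20 to 10.30 in No Storage. At an unadjusted p under 0.05, 2 of the 6 collecting duct markers were higher in NEVKP than in SCS, SLC26A7 (1.08) and ATP6V0A4 (0.71). So was 1 of the 5 proximal tubule markers, MIOX (1.04), beside 3.80% of all probe sets. In both lists 0 were lower in NEVKP than in SCS by that rule, beside 3.70%.

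Of 4 endothelial markers, 1 was lower in SCS and 0 in NEVKP at an unadjusted p under 0.05, beside 7.79% and 4.40% of all probe sets. Of 2 smooth muscle markers, 0 passed that p in SCS, beside 7.75% of all probe sets higher and 7.79% lower. CNN1 differed there by 0.43 and SYNPO2 by -0.43. For SYNPO2 every SCS array lay below every No Storage array, as for 11.6% of all probe sets. In NEVKP 1 of the 2 was higher at that p, beside 4.67% of all probe sets. Levels were 7.45 to 8.30 in NEVKP, 7.68 to 8.13 in SCS and 7.99 to 8.16 in No Storage for endothelium, and 6.42 to 7.27 in NEVKP, 5.99 to 6.40 in SCS and 6.14 to 6.26 in No Storage for smooth muscle. For podocyte and mesangium (6 markers), capsule, fat and skeletal muscle (3) and mesothelium and urothelium (4), 0 passed an unadjusted p of 0.05 against No Storage in limma. Over all probe sets 7.75% were higher and 7.79% lower in SCS, and 4.67% and 4.40% in NEVKP. Levels of these lists ran, in the order named, from 6.77 to 7.25, 4.54 to 4.77 and 5.06 to 5.26 in NEVKP. They ran from 6.74 to 7.20, 4.40 to 4.89 and 4.99 to 5.30 in SCS, and from 7.09 to 7.24, 4.63 to 4.82 and 5.0 to 5.22 in No Storage. In all these marker lists 0 markers were among the dimmest 25% of probe sets, and the part of any cell type in the matrix differences was not tested.

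**Figure D4:**
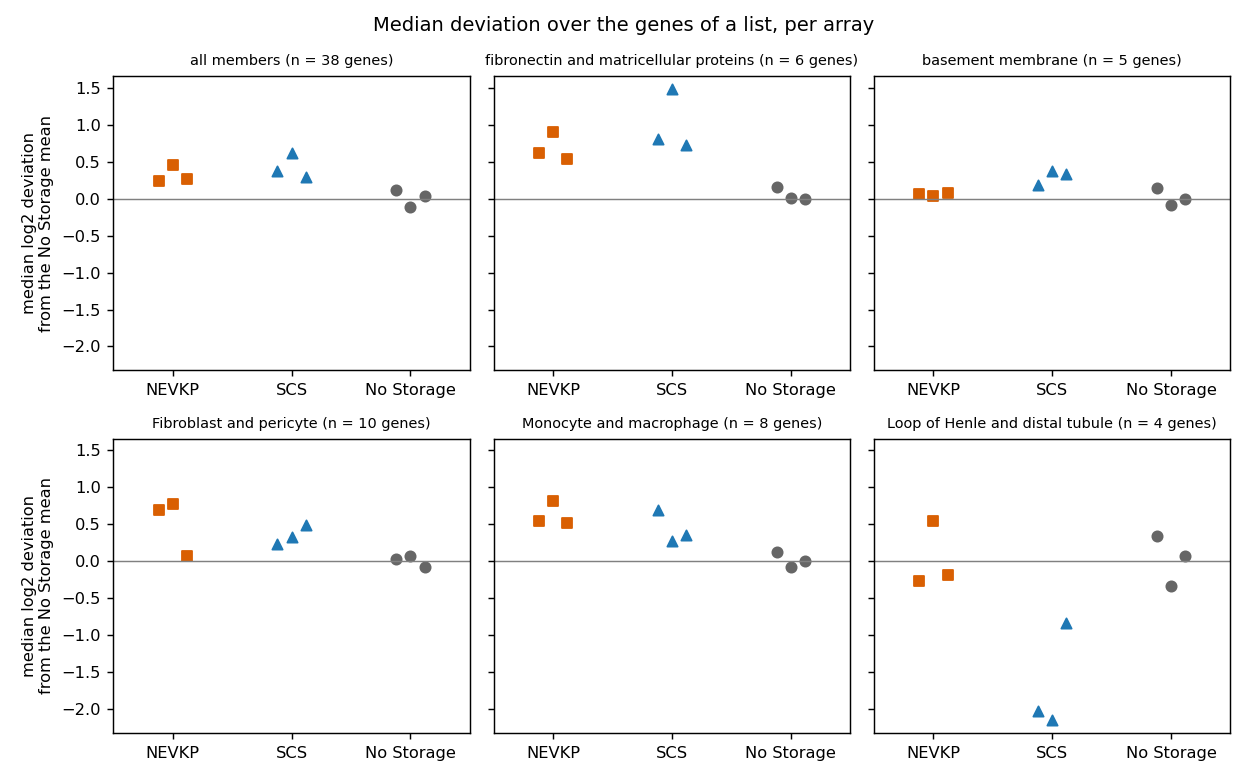
Median log2 deviation from the No Storage mean over the genes of a list (y axis), with 1 point per array in NEVKP, SCS and No Storage (x axis). All NEVKP and SCS points for the 38 members lie above the No Storage points, and the loop of Henle and distal tubule markers are lowest in SCS.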

How the data were processed

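Kidney biopsies of 9 animals were measured on 9 Affymetrix arrays. The authors deposited log2 intensities of probe sets that came from RMA (background correction, scaling between arrays and summary of probes), per the submitters' processing notes, where limma 3.34.14 is listed as well. Which array model and filters they used is not given in the sources used here. Of 19124 probe sets, 13323 had exactly 1 gene symbol in the annotation, 357 several and 5444 none. A gene was represented by its probe set of highest mean, and the RefSeq symbol of the gene ID was the same for all 38 members. Raw scans were not used.

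Using R 4.3.3 and limma 3.58.1 (lmFit, then contrasts.fit and eBayes), all 19124 probe sets of all arrays were fitted with the group as the only factor (6 residual and 4.12 prior degrees of freedom). Two-sided p-values were adjusted by Benjamini-Hochberg over all probe sets in each comparison. Arrays came from different animals, and their number limits the precision. Values in every array are given for the 5 members of smallest p in each comparison, plus the best of any role not covered, and other lists name up to 4 genes a comparison. Confidence intervals are 95%. The fit was tested on simulated data. Same-numbered arrays of different groups deviated from their group means with correlations of -0.14 to 0.13, so replicate numbers were not taken as pairs. The members and lists were chosen with earlier results of these data known. Alternatives are named in the closing section. No sequence of the members was used.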

Additional observations from a re-analysis of the deposited data

How the results depend on the processing

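The direction of every member with an unadjusted p under 0.05 (15 in SCS against No Storage, 10 in NEVKP against No Storage, 1 in NEVKP against SCS) held in all 18 settings, and 8, 5 and 1 of them kept that p in every setting. Over all 38 members the sign turned in at least 1 setting for 6, 10 and 29. The count past an adjusted p of 0.05 in SCS against No Storage, 0 as reported, was 1 with a trended and robust prior, 1 with array weights and 1 without the dimmest 25% of probe sets, in each case FN1 (adjusted p of 0.0452, 0.033 and 0.0448). It was 0 to 2 when single arrays were left out: FN1 and SULF1 passed without SCS replicate 3 (0.0405 and 0.0385) and FN1 without NEVKP replicate 2 (0.0437). In the other comparisons it was 0 in every setting. The count at an unadjusted p under 0.05 was 12 to 16 for SCS, 5 to 13 for NEVKP and 1 to 3 for NEVKP against SCS when single arrays were left out. For NEVKP against SCS it was 2 with array weights, 2 with centred arrays, 2 with the compared groups alone and 3 without SCS replicate 2 and NEVKP replicate 2, a setting chosen after seeing the data. Single arrays gave 3 without NEVKP replicate 1, NEVKP replicate 2 or SCS replicate 3, and 2 without No Storage replicate 1 or NEVKP replicate 3. The median difference of the members ran from 0.31 to 0.44 for SCS, 0.26 to 0.37 for NEVKP and -0.16 to 0.02 for NEVKP against SCS without single arrays. With the replicate number as a block the counts were 12, 9 and 1, the adjusted p of FN1 in SCS against No Storage was 0.0601, and the block changed no call at an adjusted p of 0.05, while 3 members fewer in SCS and 1 fewer in NEVKP had an unadjusted p under 0.05. Lower members at that p, 0 as reported against No Storage, numbered 1 in 7 settings for SCS (FBLN5) and 1 in 4 settings for NEVKP (LAMA2). Shares of all probe sets were not counted in the alternative settings, and the causes of these changes were not tested. PLOD1 alone among the members had several probe sets. With 3 arrays a group, a difference near a member's own SD within groups could generally not be told from none. That SD had a median over members of 0.31 in NEVKP, 0.32 in SCS and 0.20 in No Storage.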
